A study of Homo sapiens with 16 samples.

Results

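A set of 10 genes of collagen hydroxylation and crosslinking were followed in DU145 cells, a human prostate cancer line grown from a brain metastasis. They are the prolyl 4-hydroxylase subunits P4HA1, P4HA2 and P4HB, the lysyl hydroxylases PLOD1, PLOD2 and PLOD3, the lysyl oxidases LOX, LOXL1 and LOXL2, and the collagen chaperone SERPINH1. They were chosen by name, with earlier results of these data known, through the Ensembl identifiers that carry these symbols. All 10 were found among the 64792 gene identifiers of the table and passed the low-count filter that left 14690 genes to test. The study, which deals with lactate as a metabolic and chromatin signal in prostate cancer, compared 4 groups of 4 libraries: DU145 cells given lactate, cells given I-BET762, cells given lactate and I-BET762 together, and control cells. I-BET762 is a drug-like inhibitor of BET proteins, which bind acetylated histones through their bromodomains. No dose or duration is given in the labels used here, all groups are the same parental line with no genetic change named, and the labels describe the 4 libraries of a group as independent replicates. The cell line field of the combined-treatment samples carries other line numbers than their titles, and the titles, which name DU145, were followed. The line's epithelial markers were present in all libraries, with KRT8, KRT18, KRT19, EPCAM and CDH1 summing to between 2098 and 3350 CPM (counts scaled to the library total) under lactate, 2301 and 2494 under I-BET762, 2299 and 3094 under both, and 1900 and 2458 in control.

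Collagen chains are modified while they enter the endoplasmic reticulum. Prolyl 4-hydroxylase, a tetramer of catalytic alpha subunits (P4HA1 or P4HA2) and the beta subunit P4HB, which is also protein disulfide isomerase, hydroxylates prolines and so lets the triple helix hold at body temperature. The PLOD enzymes hydroxylate lysines, PLOD2 those of the telopeptides that set the type of crosslink, and PLOD3 also adds sugars. Both enzyme families use oxygen, iron, 2-oxoglutarate and ascorbate. SERPINH1, also called HSP47, binds the folded procollagen until it leaves the endoplasmic reticulum. Outside the cell, LOX and its relatives LOXL1 and LOXL2, which are copper enzymes, oxidize lysines and hydroxylysines so that fibres crosslink. P4HA1, P4HA2, PLOD2 and LOX are known targets of the hypoxia-inducible factors in human cells, and tumour cells that make them stiffen the matrix around them.

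The promoter windows of the 4 genes on which the results turn, P4HA1, P4HA2, PLOD2 and LOX, come from RefSeq (GRCh38.p14), each running from 250 bases before to 50 bases after an annotated transcription start, 5′ to 3′ on the gene's strand. Capitals mark the letters ACGTG or GCGTG on either strand (CACGT or CACGC where the match is on the opposite strand), the core of the site known to be bound by hypoxia-inducible factors. ACGTG preceded by C is also the E-box CACGTG, so the searches for both sites can overlap.
P4HA1, chr10:73096817-73097116, minus strand: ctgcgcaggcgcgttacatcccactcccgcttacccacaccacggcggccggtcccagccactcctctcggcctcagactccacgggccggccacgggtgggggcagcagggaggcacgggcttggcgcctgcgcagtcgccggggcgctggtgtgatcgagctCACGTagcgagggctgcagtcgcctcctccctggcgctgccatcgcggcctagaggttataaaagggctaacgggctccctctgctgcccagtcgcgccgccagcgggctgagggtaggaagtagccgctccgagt
P4HA2, chr5:132227042-132227341, minus strand: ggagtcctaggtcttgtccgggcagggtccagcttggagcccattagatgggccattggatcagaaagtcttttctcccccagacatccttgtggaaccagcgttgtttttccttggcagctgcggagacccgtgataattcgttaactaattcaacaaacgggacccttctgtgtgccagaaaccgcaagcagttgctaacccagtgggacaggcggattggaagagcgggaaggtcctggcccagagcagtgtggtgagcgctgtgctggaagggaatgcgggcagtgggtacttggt
PLOD2, chr3:146161135-146161434, minus strand: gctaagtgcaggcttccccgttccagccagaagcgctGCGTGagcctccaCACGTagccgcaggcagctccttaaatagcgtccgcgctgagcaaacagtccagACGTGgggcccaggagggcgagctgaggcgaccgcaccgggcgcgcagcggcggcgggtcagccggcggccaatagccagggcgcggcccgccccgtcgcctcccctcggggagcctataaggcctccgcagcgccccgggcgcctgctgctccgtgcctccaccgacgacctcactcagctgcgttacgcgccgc
LOX, chr5:122078210-122078509, minus strand: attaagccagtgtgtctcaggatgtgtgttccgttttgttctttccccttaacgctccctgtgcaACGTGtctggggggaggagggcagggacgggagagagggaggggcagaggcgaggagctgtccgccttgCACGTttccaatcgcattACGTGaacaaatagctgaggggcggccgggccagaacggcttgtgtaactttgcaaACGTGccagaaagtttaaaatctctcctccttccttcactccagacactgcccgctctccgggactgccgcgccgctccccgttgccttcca
The P4HA1 window held 1 such core, the P4HA2 window 0, the PLOD2 window 3 and the LOX window 4. LOX had 3 windows and SERPINH1 2 in the table, and the one nearest the annotated gene start was used. The only P4HA2 window lies well inside the annotated gene, whose minus-strand start is at 132295315. Its 0 therefore describes an internal start and not the gene start. The only PLOD2 window also lies inside its gene, which starts at 146163653. Over the 35116 promoter windows of this length in the RefSeq table, 48.4% held at least 1 core, 10.08% at least 3 and 4.4% at least 4. Of the 9 windows examined, those of P4HB and SERPINH1 held 1 core and that of PLOD1 2, while those of PLOD3 and LOXL1 held 0. LOXL2 is named only. A match describes the letters in the window, and binding was not measured.

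The libraries held between 10711859 counts (lactate replicate 1, the shallowest) and 17173584 counts (lactate replicate 3). HEXIM1, a gene that BET inhibitors are known to raise, was used to check the inhibitor labels. It stood at 89.6 to 148.8 CPM in the I-BET762 libraries and 115.1 to 156.9 CPM in the combined libraries, against 69.6 to 86 CPM in the lactate libraries and 70 to 135.1 CPM in the control libraries. Within its group, the library labelled control 2 (135.1 CPM) was the high one and the library labelled I-BET762 2 (89.6 CPM) the low one. The library labelled control 2 stood inside the I-BET762 range, against its label. The library labelled I-BET762 2 still stood above every lactate library and every control library but control 2. Results for I-BET762 are also given without both. Lactate replicate 1 stood apart as well: it was the lowest of its group for 8 of the 10 genes, with a median deviation over the 10 of -0.34 on the log2 scale from the group mean. Deviations of its genes from the mean over all libraries followed exon length with a Spearman rho of -0.40 across genes, against -0.42 in lactate replicate 4, 0.24 in replicate 2 and 0.10 in replicate 3. All CPM given here, including those above, use library totals scaled by edgeR's trimmed mean of M values (TMM). RNA was measured in bulk cultures, where fewer cells expressing a gene and less RNA per cell cannot be told apart.

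Lactate alone was compared with control to ask what added lactate does to expression. P4HA1 (ENSG00000122884, chromosome 10, 73007217 to 73096974, minus strand, GRCh38) and LOX (ENSG00000113083, chromosome 5, 122063195 to 122078360, minus strand) rose most firmly, and P4HA2 (ENSG00000072682, chromosome 5, 132191838 to 132295315, minus strand) rose with them. In all, 5 of the 10 genes rose and 0 fell at an adjusted p under 0.05 (edgeR quasi-likelihood test, Benjamini-Hochberg over 14690 genes), where 13.6% of all tested genes rose and 10.1% fell. The median log2 fold change of the 10 genes was 0.46, against 0.03 over all genes tested. Another 5 genes, P4HB, PLOD2, PLOD3, LOXL2 and SERPINH1, had positive fold changes that did not pass. The groups did not overlap for P4HA1, P4HA2, LOX and LOXL1, all of them higher under lactate, as for 10.9% of all genes.

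Among the prolyl 4-hydroxylase subunits, the catalytic subunit P4HA1 had 199, 187, 175 and 183 CPM under lactate, against 102.5, 116, 89.0 and 85.1 CPM in control. Every lactate library lay above every control library. The means were 186 ± 9.85 CPM under lactate and 98.1 ± 13.9 CPM in control (SD, n = 4 each), a log2 fold change of 0.92 (SE 0.11, 95% interval 0.69 to 1.16, edgeR adjusted p = 0.000164), or 1.9-fold. P4HA2, the alternative catalytic subunit, had 92.8, 104.7, 98.3 and 107.6 CPM under lactate, against 68.8, 68.4, 77.3 and 71.0 CPM in control. These groups were also apart, with a log2 fold change of 0.50 (SE 0.10, 95% interval 0.30 to 0.70, edgeR adjusted p = 0.00233), or 1.41-fold. P4HB (ENSG00000185624, chromosome 17, 81843159 to 81860694, minus strand), the shared beta subunit, had 650.0, 1040.5, 1123 and 1039 CPM under lactate, against 815, 842, 730.3 and 783 CPM in control. Lactate replicate 1 lay below all control libraries and the other 3 lactate libraries above them. Its log2 fold change was 0.28 (SE 0.13, edgeR adjusted p = 0.126) with all libraries and 0.43 (adjusted p = 0.00131) without lactate replicate 1.

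**Figure D1:**
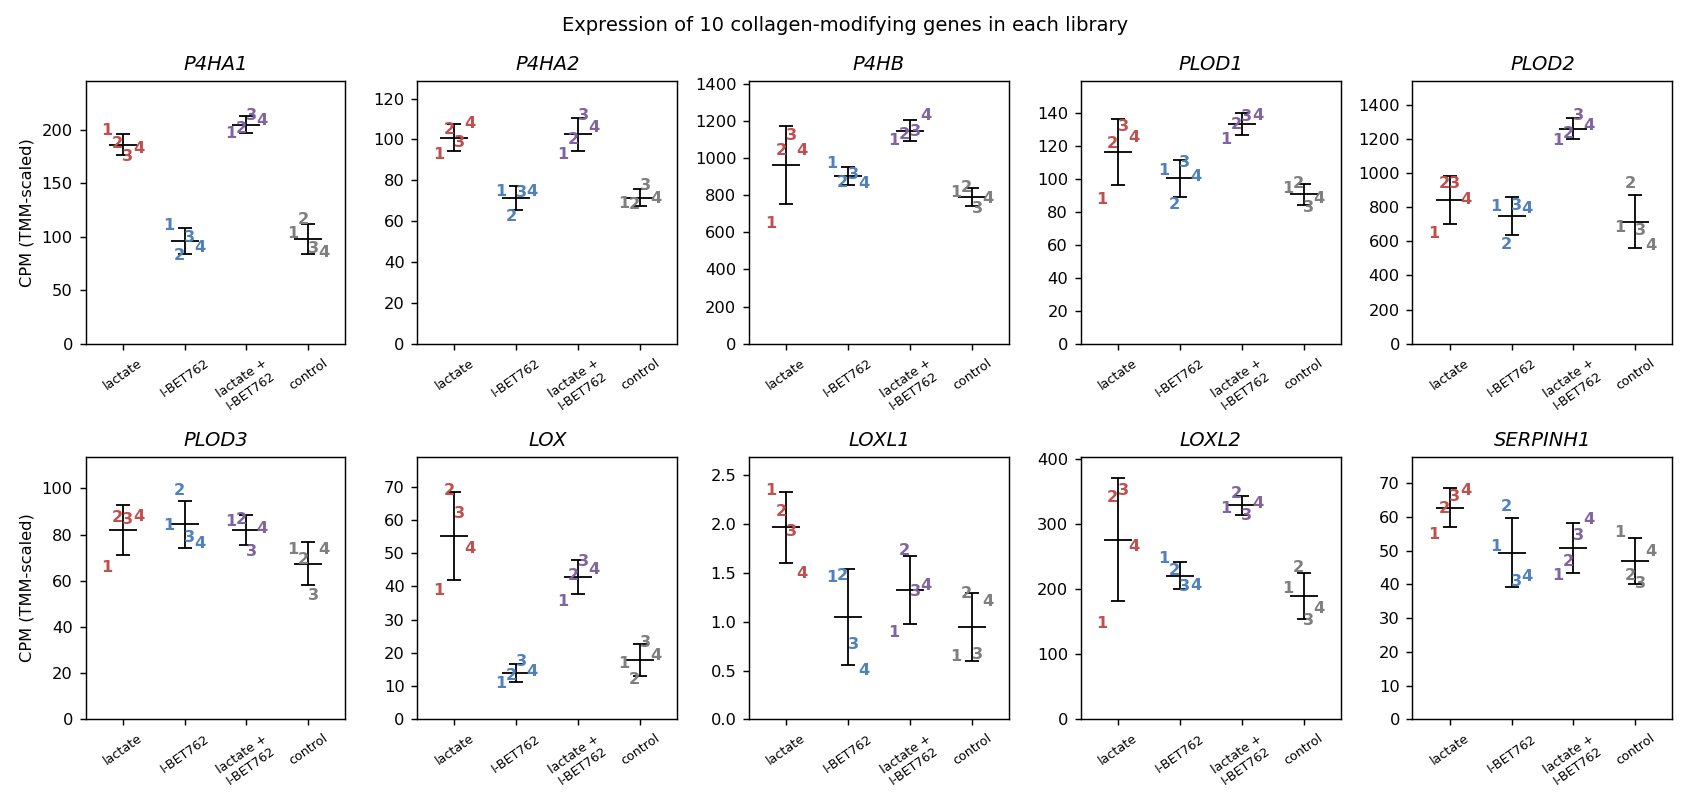
CPM (TMM-scaled) of each of the 10 genes, 1 panel per gene, in each library under lactate, I-BET762, both agents and control. Points are libraries, 4 per group, with the group mean and its SD. P4HA1, P4HA2 and LOX stand higher in every library with lactate than in every library without it, with or without I-BET762.

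Of the lysyl hydroxylases, PLOD1 alone passed under lactate. PLOD1 (ENSG00000083444, chromosome 1, 11934205 to 11975538, plus strand), which hydroxylates lysines of the helix, had 87.3, 121.5, 131.7 and 125.1 CPM under lactate, against 94.1, 97.1, 83.0 and 88.4 CPM in control. Lactate replicate 1 lay inside the control range, and the other 3 lactate libraries above it. PLOD1 passed the test narrowly, with a log2 fold change of 0.36 (SE 0.12, edgeR adjusted p = 0.0393), but did not pass in 7 of the 8 fits that left out 1 library, where the adjusted p reached 0.118 without control replicate 3. With counts corrected for GC content and exon length, its log2 fold change was 0.11 (adjusted p = 0.423). PLOD2 (ENSG00000152952, chromosome 3, 146069440 to 146163653, minus strand), the telopeptide lysyl hydroxylase, had 643, 938.5, 938 and 843 CPM under lactate, against 679, 939.8, 664 and 576.5 CPM in control. The groups overlapped, and the library labelled control 2, at 939.8 CPM, was the highest of the 8. The log2 fold change was 0.23 (SE 0.16, 95% interval -0.09 to 0.56, edgeR adjusted p = 0.272), and 0.39 without that library (adjusted p = 0.073). PLOD3 (ENSG00000106397, chromosome 7, 101205977 to 101218420, minus strand), which also glycosylates hydroxylysine, had 65.8, 87.3, 86.7 and 88.0 CPM under lactate, against 73.5, 69.0, 53.7 and 73.5 CPM in control. Its log2 fold change was 0.28 (SE 0.13, edgeR adjusted p = 0.111), 0.37 without lactate replicate 1 (adjusted p = 0.025), and -0.11 (adjusted p = 0.386) after the correction for GC content and exon length.

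LOX was the gene of the 10 with the largest fold change. It had 38.6, 68.7, 62.0 and 51.3 CPM under lactate, against 16.8, 11.8, 23.2 and 19.1 CPM in control. The lowest lactate library stood above the highest control library. The log2 fold change was 1.64 (SE 0.21, 95% interval 1.2 to 2.07, edgeR adjusted p = 0.000194), or 3.11-fold. SRFBP1, which shares 138 bases of exon with LOX on the other strand, fell by 0.51 on the log2 scale in the same comparison (edgeR adjusted p = 0.0137). LOXL1 (ENSG00000129038, chromosome 15, 73925989 to 73952137, plus strand) was near the floor of detection, with 8 to 34 counts a library. It had 2.3, 2.1, 1.9 and 1.5 CPM under lactate, against 0.6, 1.3, 0.7 and 1.2 CPM in control. The groups did not overlap and the log2 fold change was 1.06 (SE 0.34, edgeR adjusted p = 0.032), but the adjusted p was 0.0933 without control replicate 1, 0.102 without control replicate 3 and 0.0506 without lactate replicate 1. After the correction for GC content and exon length, LOXL1 stood at 0.23 (adjusted p = 0.634). LOXL2 (ENSG00000134013, chromosome 8, 23297189 to 23425328, minus strand) had 147.3, 341, 351.4 and 267 CPM under lactate, against 201.1, 234.1, 152.2 and 170.8 CPM in control. Lactate replicate 1 was below all control libraries, and the other 3 lactate libraries were above all of them. Its log2 fold change was 0.55 (SE 0.20, edgeR adjusted p = 0.0554) with all libraries and 0.75 (adjusted p = 0.000924) without lactate replicate 1.

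The chaperone SERPINH1 (ENSG00000149257, chromosome 11, 75562056 to 75572783, plus strand) had 54.8, 62.4, 66.0 and 67.7 CPM under lactate, against 55.2, 42.5, 40.4 and 49.8 CPM in control. The groups met at their edges, where lactate replicate 1 lay just under control replicate 1. The log2 fold change of 0.42 (SE 0.15, edgeR adjusted p = 0.051) did not pass, and it passed in 6 of the 19 alternative fits of this comparison.

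P4HA1, P4HA2 and LOX also passed in all 19 alternative fits of lactate against control, and the lowest fold changes in the fits that left out 1 library were 0.87, 0.47 and 1.48 on the log2 scale, in that order of genes. The number of genes of the 10 that rose was 8 without lactate replicate 1, where 25.4% of all genes changed, and 3 without control replicate 3, where 12.4% did, against 23.7% with all libraries. It was 3 with the lactate and control libraries fitted alone (6.33% of all genes) and 3 with the GC content and exon length correction (15.7% of all genes), where PLOD1 and LOXL1 no longer passed. Read counts moved with GC content in ways that differed between groups: across genes, Spearman rho of a library's deviation with GC content was -0.02 to 0.32 in the lactate libraries and -0.55 to -0.30 in the control libraries. Its part in each result was not tested beyond that correction, under which P4HA1, P4HA2 and LOX had log2 fold changes of 0.94, 0.66 and 1.79.

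**Figure D2:**
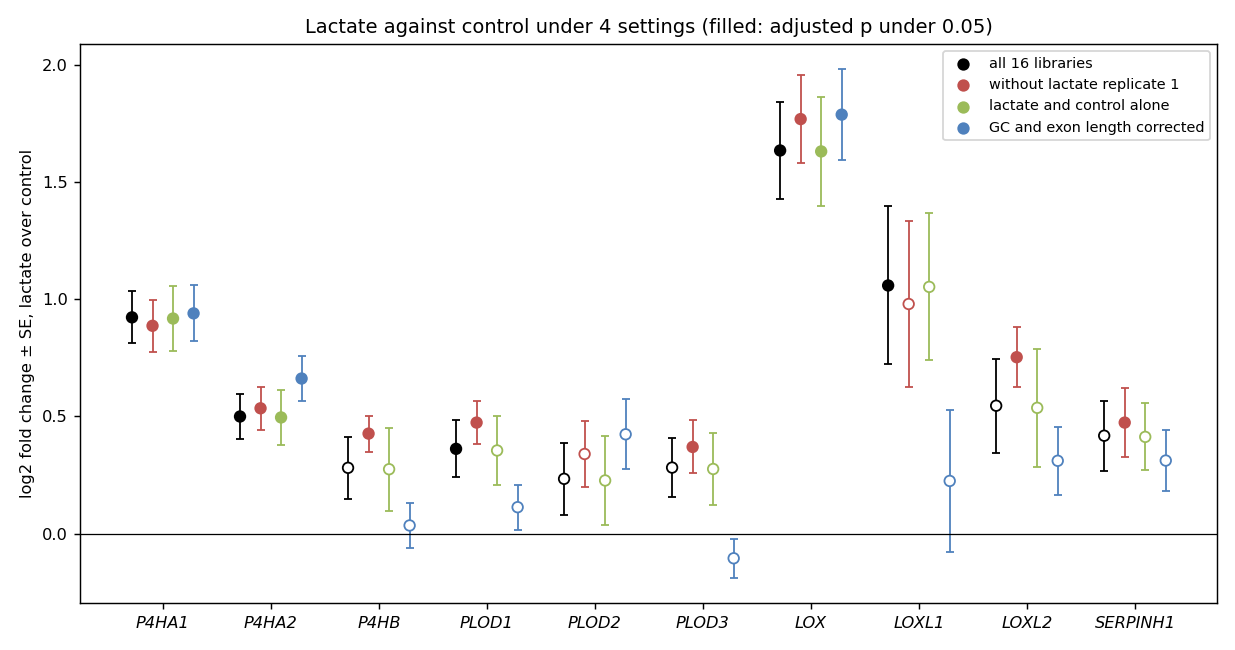
Log2 fold change with its SE (vertical axis) of lactate over control for each of the 10 genes, in 4 fits: all 16 libraries, without lactate replicate 1, lactate and control libraries alone, and with a correction for GC content and exon length. Filled points passed at an adjusted p under 0.05. P4HA1, P4HA2 and LOX are filled in all 4 fits, P4HB, PLOD3, LOXL2 and SERPINH1 are filled without lactate replicate 1, and PLOD1 and LOXL1 drop after the correction.

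The same question was put in the presence of the inhibitor, with cells given lactate and I-BET762 against cells given I-BET762 alone. Here 4 of the 10 genes rose and 0 fell, where 4.9% of all genes changed, 3.34% rising and 1.57% falling. The genes were P4HA1, P4HA2, PLOD2 and LOX. The median log2 fold change was 0.47, against 0.01 over all genes. In 7 genes, those 4 with P4HB, PLOD1 and LOXL2, every combined library was above every I-BET762 library, as in 11.2% of all genes (22.5% did not overlap in either direction).

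P4HA1 had 196.4, 200.7, 213 and 208 CPM in the combined libraries, against 110.7, 82.5, 99.2 and 89.8 CPM in the I-BET762 libraries. The log2 fold change was 1.10 (SE 0.11, 95% interval 0.87 to 1.33, edgeR adjusted p = 3.56e-05). P4HA2 had 92.5, 99.8, 112 and 105.6 CPM with both agents, against 74.5, 62.3, 74.0 and 74.4 CPM with I-BET762, a log2 fold change of 0.52 (SE 0.10, edgeR adjusted p = 0.00497). LOX had 35.4, 43.1, 47.4 and 45.1 CPM with both agents, against 10.7, 13, 17.5 and 14.4 CPM with I-BET762. The groups were far apart, and the log2 fold change was 1.62 (SE 0.21, 95% interval 1.18 to 2.06, edgeR adjusted p = 0.000409).

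PLOD2 stood highest in the combined libraries. It had 1192, 1230.3, 1337.5 and 1279.8 CPM in the combined libraries, against 806, 580.5, 808.5 and 794 CPM in the I-BET762 libraries. Each combined library was above every other library of the study, of which the highest stood at 939.8 CPM. The share of all genes with such a gap was not computed. PLOD2 did not pass in the combined cells against lactate (edgeR adjusted p = 0.222) or in the interaction (edgeR adjusted p = 0.7). The log2 fold change over I-BET762 was 0.75 (SE 0.16, 95% interval 0.43 to 1.08, edgeR adjusted p = 0.0104), and 0.65 (adjusted p = 0.0165) without the libraries labelled control 2 and I-BET762 2. PLOD1 had 124.2, 133.4, 138 and 139 CPM with both agents, against 105.4, 84.8, 110.4 and 101.3 CPM with I-BET762, and its log2 fold change of 0.41 (SE 0.12) had an adjusted p of 0.0589. P4HB and LOXL2 had log2 fold changes of 0.35 (adjusted p = 0.151) and 0.57 (adjusted p = 0.111). PLOD3, LOXL1 and SERPINH1 stood at -0.04, 0.36 and 0.04, with adjusted p from 0.622 to 0.927. With the combined and I-BET762 libraries fitted alone, 7 genes passed in place of 4, P4HB, PLOD1 and LOXL2 joining, and the share of all genes was 18% in place of 4.9%. A correction for GC content and exon length left the count at 4.

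I-BET762 alone was set against control to ask what BET inhibition does without added lactate. None of the 10 genes passed, in a comparison where 0.442% of all genes did. Unadjusted p was under 0.05 for 1 of the 10 genes, PLOD3, and for 1682 genes in all, and DESeq2 also called 0 of the 10 while calling 3.69% of all genes. The 65 genes behind the 0.442% became 0 in 6 of the 8 fits that left out 1 library, 277 without control replicate 4, 105 without I-BET762 replicate 4 and 10 without the libraries labelled control 2 and I-BET762 2, and 0 of the 10 genes passed in each. PLOD3 had 83.8, 98.9, 78.6 and 76.3 CPM with I-BET762, against 73.5, 69.0, 53.7 and 73.5 CPM in control, with no overlap and a log2 fold change of 0.32 (95% interval 0.06 to 0.59, edgeR adjusted p = 0.276). P4HB was also higher in every I-BET762 library than in every control library, with a log2 fold change of 0.19 (95% interval -0.09 to 0.47, adjusted p = 0.701). A gap between groups in that direction was found for 7.73% of all genes. After the correction for GC content and exon length the log2 fold changes were -0.021 for PLOD3 and 0.013 for P4HB. LOX went the other way, with 10.7, 13, 17.5 and 14.4 CPM with I-BET762, against 16.8, 11.8, 23.2 and 19.1 CPM in control, groups that overlapped (log2 fold change -0.35, 95% interval -0.79 to 0.09, adjusted p = 0.606). For P4HA1 the interval of the log2 difference was -0.27 to 0.20 and for P4HA2 -0.20 to 0.20, so a change as large as lactate gave in P4HA1 or P4HA2 lay outside them. PLOD2 stood at 0.06 (95% interval -0.26 to 0.39), and at 0.33 (adjusted p = 0.275) without the libraries labelled control 2 and I-BET762 2. In PLOD2, as in HEXIM1, these were the highest control library and the lowest I-BET762 library: the library labelled control 2 had 939.8 CPM against 576.5 to 679 CPM in the other controls, and the library labelled I-BET762 2 had 580.5 CPM against 794 to 808.5 CPM in the other I-BET762 libraries.

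**Figure D3:**
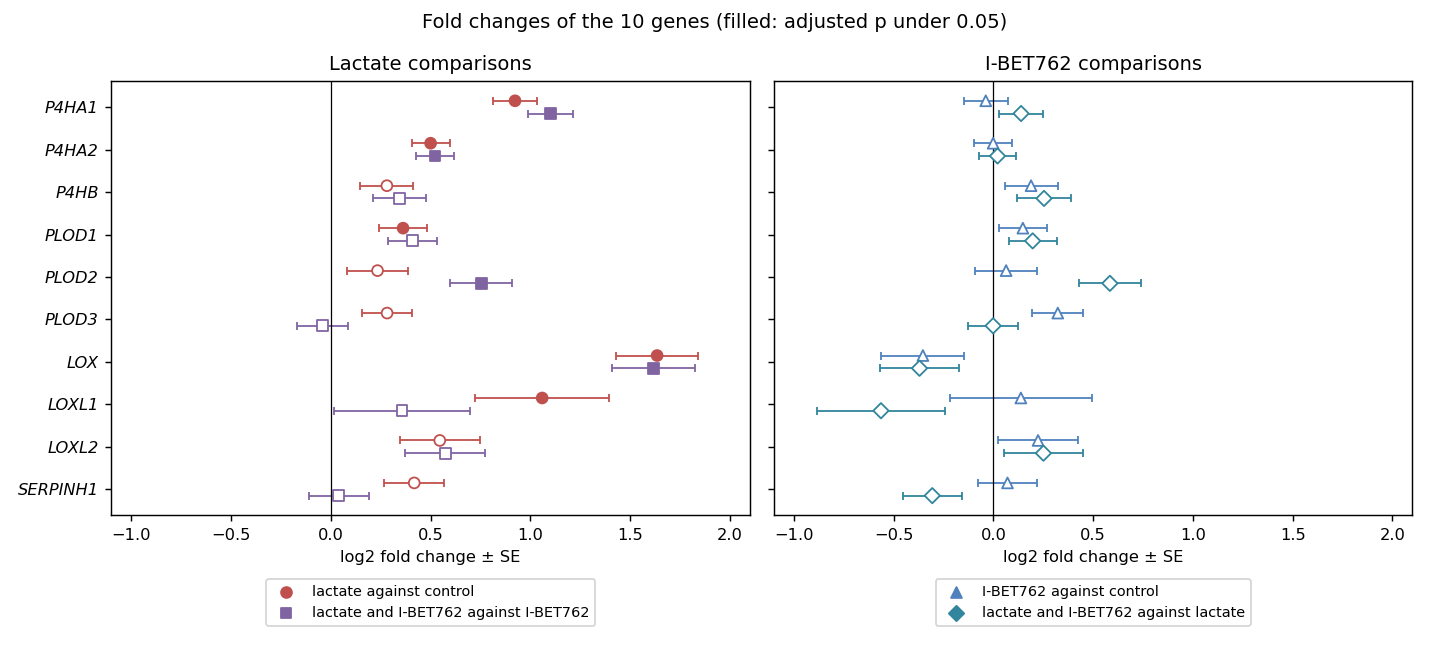
Log2 fold change with its SE (horizontal axis) of each of the 10 genes. The left panel holds lactate against control and lactate with I-BET762 against I-BET762, the right panel I-BET762 against control and lactate with I-BET762 against lactate. Filled symbols passed at an adjusted p under 0.05, and none in the right panel did.

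Adding I-BET762 to lactate was tested by setting the combined cells against lactate alone. None of the 10 genes passed, and 0% of all 14690 genes did in edgeR. Unadjusted p was under 0.05 for 1 of the 10 genes and for 2294 genes in all, while DESeq2 called 103 genes and 0 of the 10. The 1 gene was PLOD2, at 1192, 1230.3, 1337.5 and 1279.8 CPM with both agents, against 643, 938.5, 938 and 843 CPM with lactate. Its groups did not overlap, as for 3.82% of all genes in that direction and 7.6% in either, and its log2 fold change was 0.58 (SE 0.16, 95% interval 0.26 to 0.91, unadjusted p = 0.00158, edgeR adjusted p = 0.222). With no filter on low counts PLOD2 passed (0.62, adjusted p = 0.0328). LOX had 35.4, 43.1, 47.4 and 45.1 CPM with both agents, against 38.6, 68.7, 62.0 and 51.3 CPM with lactate, a log2 fold change of -0.37 (95% interval -0.79 to 0.05, adjusted p = 0.359). SERPINH1 and LOXL1 also stood below 0, at -0.31 (adjusted p = 0.327) and -0.56 (adjusted p = 0.38). For P4HA1 the log2 difference was 0.14 (95% interval -0.09 to 0.37) and for P4HA2 0.02 (95% interval -0.18 to 0.22).

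Whether the lactate effect itself differed with and without I-BET762 was tested as an interaction. None of the 10 genes and 0% of all genes passed in edgeR, with an unadjusted p under 0.05 for 1 of the 10 and for 894 genes in all, and DESeq2 called 0 genes, 0 of them among the 10. PLOD2 had the smallest unadjusted p (0.03), with a lactate effect that was 0.52 higher on the log2 scale with I-BET762 than without (95% interval 0.06 to 0.98, adjusted p = 0.7). Without the libraries labelled control 2 and I-BET762 2 that difference was 0.26 (adjusted p = 0.912). For the genes that passed with lactate in both settings, the intervals were -0.15 to 0.51 for P4HA1, -0.26 to 0.31 for P4HA2 and -0.63 to 0.60 for LOX. For LOX a difference of the size seen in PLOD2 was thus within the error.

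Against control, the combined treatment raised 7 of the 10 genes and lowered 0, where 20.7% of all genes changed, 13% rising and 7.72% falling. This comparison shares its control libraries with that of lactate alone and that of I-BET762 alone. P4HA1 (1.06), P4HA2 (0.52), P4HB (0.54), PLOD1 (0.56), PLOD2 (0.82), LOX (1.27) and LOXL2 (0.80) passed, with edgeR adjusted p from 4.14e-05 to 0.0104 and no overlap between groups, as for 16.5% of all genes in that direction and 31.2% in either. P4HB had 1095, 1125, 1143 and 1231 CPM with both agents, against 815, 842, 730.3 and 783 CPM in control. LOXL2 had 324, 347, 313 and 333 CPM with both agents, against 201.1, 234.1, 152.2 and 170.8 CPM in control. These combined libraries lay close together, with an SD of 14.4 CPM for LOXL2, against 94.1 CPM in the lactate group. PLOD3 (0.28, adjusted p = 0.129), LOXL1 (0.50, adjusted p = 0.338) and SERPINH1 (0.11, adjusted p = 0.642) did not pass. After the correction for GC content and exon length 5 genes passed, P4HB (0.23, adjusted p = 0.113) and PLOD1 (0.24, adjusted p = 0.103) being lost.

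Levels of the genes were compared with each other per kilobase of annotated exon. P4HB was the most abundant in every group, at 182 CPM per kb under lactate, 170.4 under I-BET762, 217 under both and 149 in control. PLOD2 came second, at 110.0 CPM per kb under lactate, 97.7 under I-BET762, 165 under both and 93.5 in control, its range meeting that of P4HB under lactate alone. P4HA1 and LOXL2 followed. P4HA1 stood at 60.1 CPM per kb under lactate, 30.9 under I-BET762, 66.2 under both and 31.7 in control, and LOXL2 at 48.5, 38.8, 57.7 and 33.2 CPM per kb in the same 4 groups. Their ranges overlapped under lactate, under I-BET762 and in control, so their order there is within the spread. PLOD1 came next and PLOD3 after it in each group, at 17 and 11.9 CPM per kb in control, with ranges that overlapped under I-BET762. P4HA2 followed, at 11.9 CPM per kb under lactate and 8.39 in control, and overlapped SERPINH1 (9.99 under lactate and 7.48 in control) in the control and I-BET762 libraries and PLOD3 in the lactate and combined libraries. LOX stood last but one at 9.94 CPM per kb under lactate, 2.51 under I-BET762, 7.71 under both and 3.20 in control, and its range met that of SERPINH1 wherever lactate was present. LOXL1 was lowest throughout, at 0.54 CPM per kb under lactate and 0.26 in control. Scaled by the longest transcript in place of all exons, P4HA1 and LOXL2 changed places under lactate and under both agents, and so did PLOD3 and P4HA2, and under I-BET762 P4HA1 changed places with PLOD1.

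**Figure D4:**
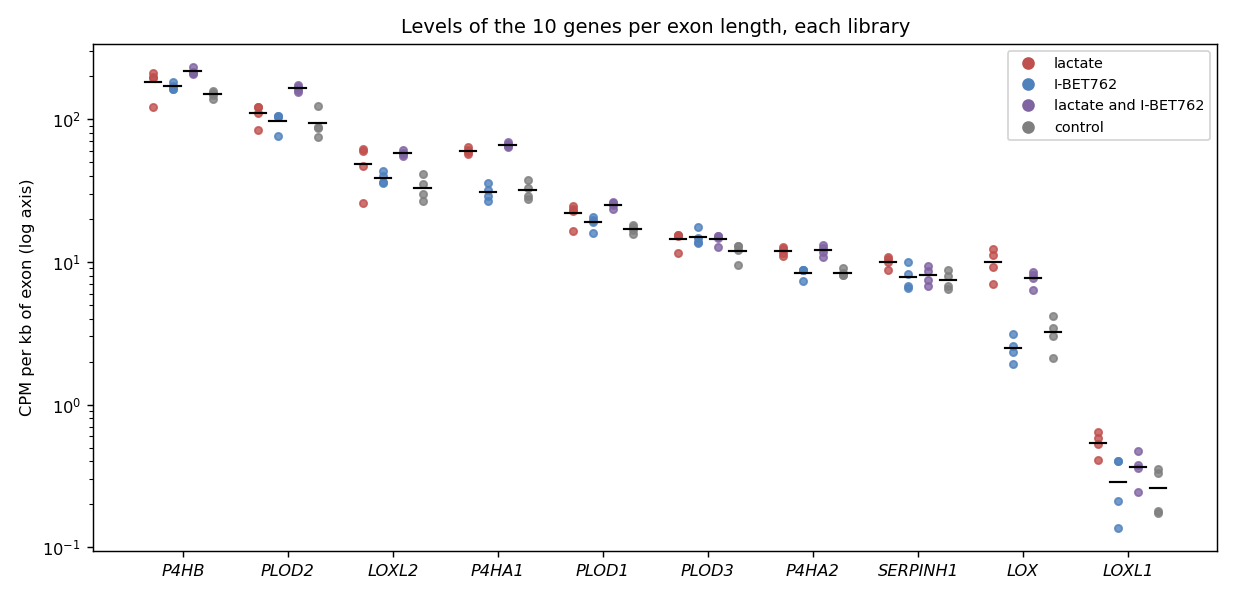
Level of each gene in CPM per kilobase of exon (vertical log axis), genes ordered by their control mean. Points are the 16 libraries, coloured by group, and bars are group means. LOX averages 9.94 CPM per kb under lactate, beside SERPINH1, against 3.20 CPM per kb in control, and LOXL1 is lowest in all groups.

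The 10 genes did not vary together as 1 block over the 16 libraries. Correlations are given as a description, since groups of 4 libraries share a treatment and all share the scaling. P4HB went with LOXL2 (Pearson r = 0.95) and PLOD1 (0.94), and these kept r = 0.92 and 0.89 when only deviations from group means were used. Lactate replicate 1 had the largest deviation in each of these genes, at -0.54 for P4HB, -0.83 for LOXL2 and -0.40 for PLOD1 on the log2 scale. The correlations were not computed without it. P4HA1 went with P4HA2 (0.92) and LOX (0.85), but among deviations from group means the values were 0.15 and -0.54. PLOD2 was nearest to PLOD1 (0.90, and 0.81 within groups) and had r = -0.01 with SERPINH1. Among all genes averaging 5 CPM or more, those most like P4HA1 over the 16 libraries were PGK1 (r = 0.99), BNIP3 (0.99) and PGM1 (0.98). Those most like P4HA2 were ENO2, NIPSNAP1 and GPR160 (0.95, 0.95 and 0.94), and those most like LOX were BHLHE40, GTPBP2 and PRPF40B (0.96, 0.95 and 0.95). P4HB was most like SSH3, TRPM4 and CAPN5 (0.98, 0.97 and 0.96), PLOD1 like PTK7, RCAN2 and TRAPPC9 (0.96, 0.95 and 0.95), and LOXL2 like MAPK7, GYS1 and PREX1 (0.97, 0.97 and 0.95). PLOD2 was most like EPM2AIP1, FAM149B1 and GPRIN1 (0.95, 0.94 and 0.93), and PLOD3 like GJD3-AS1, CUEDC1 and ZBTB7B (0.94 for each). The likest genes were less close for SERPINH1 (B4GALT2, CYB561 and NES, 0.89 each) and LOXL1 (GNAZ and RGS19, 0.80 and 0.79).

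The other genes of collagen making were read from lists of their own. Shares of all genes to set beside their counts were 13.6% rising and 10.1% falling in lactate against control. They were 3.34% and 1.57% in lactate with I-BET762 against I-BET762, and 13% and 7.72% in the combined cells against control. Among 10 further genes of hydroxylases and their partners (CRTAP and P3H4), lysyl oxidases and collagen glycosyltransferases, 4 rose under lactate against control and 0 fell. Their median log2 fold change was 0.33. P4HA3, the third catalytic prolyl hydroxylase subunit, had 4.27, 5.02, 6.51 and 6.55 CPM under lactate, against 3.24, 3.79, 3.09 and 2.55 CPM in control (log2 fold change 0.83, SE 0.18, edgeR adjusted p = 0.00517). All lactate libraries lay above all control libraries, as for 10.9% of all genes. P3H3, of the prolyl 3-hydroxylase family, rose by 1.17 (adjusted p = 0.00176) and the lysyl oxidase LOXL4 by 1.06 (adjusted p = 0.00405). P4HA3 and LOXL4 also rose with lactate in the presence of I-BET762, by 1.07 (adjusted p = 0.00258) and 0.87 (adjusted p = 0.0333), the only 2 of the 10 to do so, though LOXL4 no longer passed in 7 of the 8 fits that left out 1 library, where its adjusted p reached 0.119 without combined replicate 4. In the combined cells against control 3 rose and 1 fell, with P4HA3 at 0.99 (adjusted p = 0.00137) and P3H3 at 0.99 (adjusted p = 0.00395). LOXL4, 1 of the 3, had an adjusted p of 0.0525 with the replicate number as a block and did not pass in 7 of the 8 fits that left out 1 library, where its adjusted p reached 0.127 without combined replicate 4. With the compared groups fitted alone, 2 of the list passed under lactate against control and 7 in the combined cells against control. Of all genes, 6.33% and 33.5% passed in those fits.

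**Figure D5:**
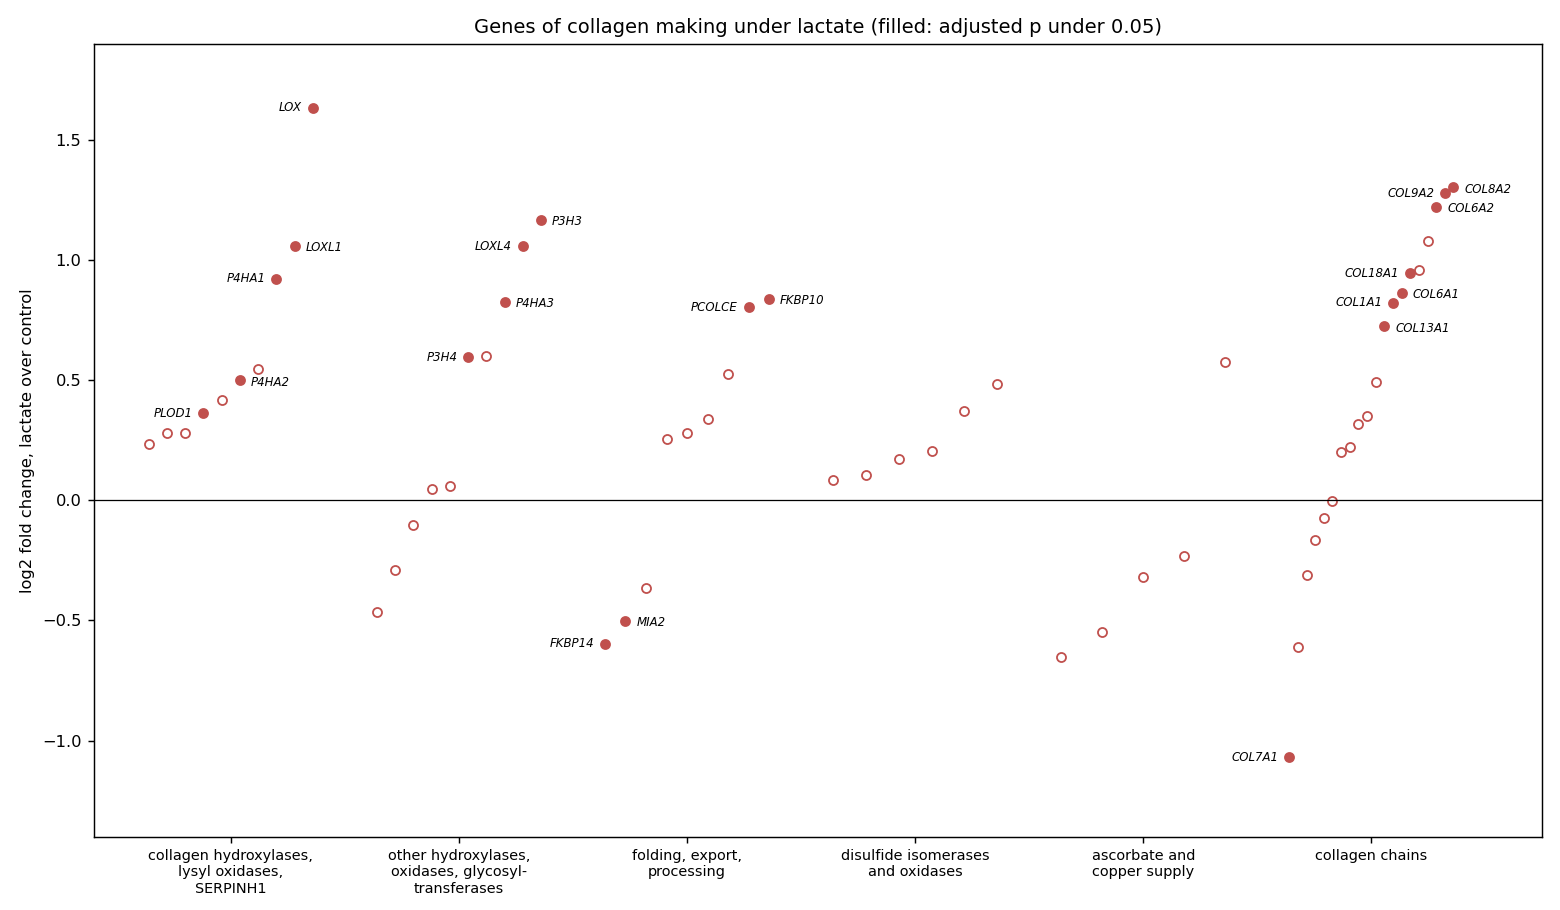
Log2 fold change of lactate over control (vertical axis) for the 10 genes and for the tested members of 5 lists of other genes of collagen making, 1 point per gene. Filled points passed at an adjusted p under 0.05 and carry their names. Filled points lie above 0 in the first 2 columns, and COL7A1, FKBP14 and MIA2 are the filled points below 0.

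Of 13 genes of collagen folding, export and processing, 9 were tested, and lactate raised 2 and lowered 2 (median 0.28). Of all genes, 13.6% rose and 10.1% fell. FKBP10, a prolyl isomerase that acts on procollagen, had 53.9, 45.8, 52.8 and 54.5 CPM under lactate, against 35.3, 23.1, 23.7 and 33.6 CPM in control, and rose by 0.84 (SE 0.15, edgeR adjusted p = 0.00192). FKBP14, of the same family, fell by 0.60 on the log2 scale (adjusted p = 0.00328), and MIA2, which takes part in export from the endoplasmic reticulum, fell by 0.50 (adjusted p = 0.00914). Without lactate replicate 3 the count was 7, where 26.9% of all genes changed. It was 2, FKBP10 and FKBP14, after the correction for GC content and exon length (15.7% of all genes). The same 2 passed with the compared groups fitted alone (6.33% of all genes). With lactate in the presence of I-BET762 none of the 9 passed, and in the combined cells against control 2 rose and 2 fell, MIA2 falling by 0.58 (adjusted p = 0.00368). MIA2 alone of these 4 passed without control replicate 3 or without the libraries labelled control 2 and I-BET762 2.

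None of 6 disulfide isomerases and their oxidases passed under lactate against control (median 0.19). The nearest were PDIA5 (0.48, adjusted p = 0.0501), ERO1B (0.37, adjusted p = 0.0869) and PDIA4 (0.20, adjusted p = 0.0989). Of 6 genes that supply ascorbate or copper to these enzymes, 5 were tested and 0 passed (median -0.32). ATP7A, the copper pump that loads secreted copper enzymes, stood at -0.65 (adjusted p = 0.0591), the copper importer SLC31A1 at -0.32 (adjusted p = 0.0671) and the copper chaperone ATOX1 at 0.58 (adjusted p = 0.071). Unadjusted p was under 0.05 for 3 genes of each list and for 5797 genes in all. DESeq2 called 2 of each list and 28.8% of all genes, and other fits of the same comparison called up to 3 of each list.

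Collagen chains, the substrates, were represented by 33 genes, of which 20 were tested. Lactate raised 7 and lowered 1 against control, with a median log2 fold change of 0.42, where 13.6% of all genes rose and 10.1% fell. COL6A2 had 68.2, 117, 155 and 109.6 CPM under lactate, against 51.8, 51.6, 34.9 and 54.6 CPM in control, and rose by 1.22 (SE 0.21, edgeR adjusted p = 0.00127). COL8A2 rose by 1.30 (adjusted p = 0.00286) and COL9A2, at a low level, by 1.28 (adjusted p = 0.00474), while COL7A1, the 1 chain that fell, stood at 1.18 ± 0.42 CPM under lactate and 2.53 ± 0.75 CPM in control (SD, n = 4 each). The count of 8 was 4 with both groups fitted alone (6.33% of all genes) and 3 after the correction for GC content and exon length (15.7% of all genes). With lactate in the presence of I-BET762, 2 chains rose and 1 fell, where 3.34% of all genes rose and 1.57% fell. COL8A2 rose by 1.2 (adjusted p = 0.0142) and COL7A1 fell by 1.16 on the log2 scale (adjusted p = 0.0217). The count of 3 ranged down to 0 without I-BET762 replicate 4 or without combined replicate 4. It reached 7 with the compared groups fitted alone (18% of all genes). In the combined cells against control 7 rose and 1 fell, where 13% of all genes rose and 7.72% fell. COL6A2 stood at 1.57 (adjusted p = 0.000233) and COL18A1 at 1.58 (adjusted p = 0.00051). Without control replicate 3, 5 chains passed (11.5% of all genes). I-BET762 alone against control, the combined cells against lactate, and the interaction called 0 genes in all 5 lists with all libraries in edgeR. In I-BET762 against control edgeR called COL6A2 and COL18A1 with no filter on low counts and with the groups fitted alone, and COL6A2 with a minimum mean of 5 CPM and without control replicate 4. It called 0 chains there with the correction for GC content and exon length, or without the libraries labelled control 2 and I-BET762 2. Among the 20 chains unadjusted p was under 0.05 for 5 in I-BET762 against control, 4 in the combined cells against lactate and 0 in the interaction, and DESeq2 called 2, 1 and 0 chains in the same order.

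Fibroblasts are the cells best known for making these enzymes, so their markers were read in the same libraries. The 10 fibroblast markers summed to 6.2 to 11.2 CPM under lactate, 5.60 to 9.09 under I-BET762, 7.08 to 12.5 under both and 4.93 to 6.04 in control, and 2 of them were tested. DCN was at 0 in all 16 libraries, and PDGFRA, LUM, THY1 and FAP had at most 2 counts in any. COL1A2, PDGFRB and COL3A1 had at most 5, 10 and 16 counts in any library and were not tested. COL3A1 was lower in every combined library, at 0.07, 0, 0.14 and 0 CPM, than in control, at 0.64, 0.23, 0.53 and 0.64 CPM. COL1A1, which is also a collagen chain of the list above, rose by 0.82 under lactate (edgeR adjusted p = 0.0247), and ACTA2 stood at 0.73 (adjusted p = 0.0702). Both rose in the combined cells against control, where 7 of the 10 genes and 13% of all genes rose. COL1A1 rose by 0.92 (adjusted p = 0.0149) and ACTA2 by 1.2 (adjusted p = 0.00613). COL1A1 there had an adjusted p of 0.0548 without control replicate 3, 0.069 without combined replicate 4 and 0.141 after the correction for GC content and exon length. Their part in the results for the 10 genes was not tested. Of the 5 epithelial markers, KRT19 rose by 0.76 (adjusted p = 0.00891) and KRT8 by 0.49 (adjusted p = 0.0151) under lactate against control, where 13.6% of all genes rose.

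Some of the 10 genes share exon bases with a neighbour, and no source used here gives the strand setting of the counting. ZNHIT1 shares 429 bases with PLOD3 on the opposite strand, had 435 to 987 counts a library, and rose by 0.84 under lactate (edgeR adjusted p = 0.0107), so the PLOD3 values are uncertain to that extent. LOXL1-AS1 shares 335 bases with LOXL1 on the opposite strand and had 46 to 136 counts a library, more than LOXL1 itself in all of them, with a log2 fold change of 0.02 (adjusted p = 0.951). ENTPD4 shares 120 bases with LOXL2 on the same strand and stood at -0.60 (adjusted p = 0.0714). Antisense genes over P4HA2 and P4HB had at most 8 counts.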

How the data were processed

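Poly(A) RNA of 16 DU145 cultures (800 ng per library, a strand-marking kit, single-end reads of 75 bases, per the labels' protocols) was sequenced. The authors deposited raw counts per Ensembl gene. STAR 2.6.1c, DESeq and the builds GRCh38.p12 and hg38 are named in the submitters' processing notes, while no source used here names the program that counted reads, its strand option or its gene annotation. Columns were matched to samples by title. Symbols and exons came from GENCODE 29 (GRCh38), which held 58735 of the 64792 identifiers.

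Genes were kept by edgeR's filterByExpr (minimum count 10, minimum total 15), scaled by TMM and fitted in edgeR 4.0.16 (R 4.3.3) as 4 group means over all 16 libraries, with quasi-likelihood tests and Benjamini-Hochberg adjustment over 14690 genes (threshold 0.05, 12 residual degrees of freedom). Alternatives used other scalings, filters, DESeq2 1.42.0, limma 3.58.1 (voom), a replicate block, the compared groups alone, splines (4 degrees of freedom) of GC content and exon length, and each library left out; for the other lists they were added after seeing the data. The fitting script was tested on simulated data. Correlations used log2 CPM with a prior count of 2. One gene among those most like LOXL1 is not reported here. CPM limits come from 10711859 to 17173584 counts per library.

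The members and lists were chosen with earlier results of these data known. All 10 members are named, and of each other list up to 3 genes with the smallest p in lactate against control and up to 2 in other comparisons with any call. P-values measure the spread between cultures that the labels call independent. Deviations of same-numbered libraries from their group means correlated above 0.1 in all 4 pairs for the combined and control groups (0.20 to 0.63) and for the combined and lactate groups (0.12 to 0.54), and not in the other pairs of groups. Best matches by number were mixed even there. For the combined libraries 1, 2, 3 and 4, the best-matching control libraries were 2, 1, 3 and 4. For the I-BET762 and combined groups the correlations were 0.46, 0.29, 0.46 and 0.05. Whether the numbers pair samples is therefore not settled by the data, and the labels do not state a pairing.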

Additional observations from a re-analysis of the deposited data

Results flagged for a closer look

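Of 40 combinations of a gene and a group examined for 1 library far from the other 3 (gap over range above Dixon's 95% critical value), 3 stood out, and chance flags about 1 in 20 such groups. P4HA2 had 62.3 CPM in the library labelled I-BET762 2, against 74.0 to 74.5 CPM in the other I-BET762 libraries. PLOD2 had 580.5 CPM in the same library, against 794 to 808.5 CPM in the others, and HEXIM1 was also lowest of its group there. PLOD3 had 65.8 CPM in lactate replicate 1, against 86.7 to 88.0 CPM in the other lactate libraries. The cause of each was not tested.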

How the results depend on the processing

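Numbers of the 10 genes that passed moved by more than 1.5 times in these cases. For lactate against control the 5 genes became 3 with the compared groups fitted alone and 3 with the correction for GC content and exon length (6.33% and 15.7% of all genes changed, against 23.7%), and 3 (without control replicate 3) to 8 (without lactate replicate 1) when 1 library was left out. For lactate with I-BET762 against I-BET762 the 4 became 7 with the compared groups fitted alone (18% of all genes, against 4.9%), and for the combined cells against lactate the 0 became 1 (PLOD2) with no filter on low counts (0.631% of all genes, against 0%). I-BET762 against control and the interaction gave 0 in every fit. The replicate block gave the same number as the fit without it in all 6 comparisons (5 in lactate against control, 0, 4, 0, 7 and 0 in the others) and changed no call among the 10 genes. In the combined cells against control, the replicate block took LOXL4 out (adjusted p = 0.0525) and brought PDIA4 and PDIA5 in. Best matches of libraries by number were mixed, and same-numbered I-BET762 and control libraries numbered 2 correlated at -0.32.

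Every change of sign was in a fold change past the threshold in neither fit. Under the correction for GC content and exon length these were, in lactate against control, PLOD3 (-0.105); in I-BET762 against control, P4HA1 (0.054), P4HA2 (0.079), PLOD1 (-0.034), PLOD3 (-0.021), LOXL1 (-0.605) and SERPINH1 (-0.027); in the combined cells, SERPINH1 against I-BET762 (-0.051), P4HA2 against lactate (-0.067), and PLOD3 (-0.236), LOXL1 (-0.52) and SERPINH1 (-0.078) against control; in the interaction, P4HA2 (-0.146). P4HA2 in I-BET762 against control was 0 under DESeq2 and RLE factors, 0.025 with the groups alone, 0.008 with a minimum mean of 5 CPM and 0.005 with no filter. P4HA2 in the combined cells against lactate was 0 with the groups alone and -0.02 with that minimum, and PLOD3 there 0.001 under voom and 0.032 with no filter. In the interaction, the 5 CPM minimum gave PLOD1 (-0.001), LOXL2 (-0.02) and P4HA2 (-0.029), and LOX was 0.005 with no filter and 0.001 under the replicate block. Without lactate libraries 1 and 4, LOXL2 in the combined cells against lactate was -0.074, and the interactions of PLOD1, P4HB and LOXL2 were -0.084, -0.116 and -0.31. Without the libraries labelled control 2 and I-BET762 2, the interactions of P4HA2, PLOD1, LOXL2 and LOX were -0.015, -0.057, -0.073 and 0.105, I-BET762 against control gave SERPINH1 (-0.112), P4HA2 (0.038) and P4HA1 (0.115), and PLOD3 in the combined cells against I-BET762 was 0.041.

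With 1 library left out, the ranges that crossed 0 were, in I-BET762 against control, LOXL1 (-0.065 to 0.375), P4HA1 (-0.116 to 0.051), P4HA2 (-0.022 to 0.058) and SERPINH1 (-0.067 to 0.158); in the combined cells against I-BET762, PLOD3 (-0.088 to 0.041) and SERPINH1 (-0.041 to 0.177); against lactate, P4HA2 (-0.021 to 0.07) and PLOD3 (-0.091 to 0.056); and in the interaction, LOX (-0.172 to 0.135), LOXL2 (-0.165 to 0.165), P4HA2 (-0.035 to 0.071), P4HB (-0.068 to 0.149) and PLOD1 (-0.05 to 0.116). The cause of each shift was not tested. P4HA1, P4HA2 and LOX passed in every fit of the 3 comparisons with added lactate, and PLOD2 in every fit of the combined cells against I-BET762 and against control. LOXL1, at 8 to 34 counts, is limited by depth.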

Other observations

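The chains COL6A2 and COL18A1 are named here after their values were seen. Both had higher values in every I-BET762 library than in every control library, as did 7.73% of all genes. COL6A1, COL1A1 and COL9A2 had such a gap too. Counting both directions, the groups did not overlap for 5 of the 20 chains tested and for 10.8% of all genes. COL6A2, a chain of collagen VI, had 100.96, 88.0, 90.6 and 75.5 CPM with I-BET762, against 51.8, 51.6, 34.9 and 54.6 CPM in control, with a gap between the groups (log2 fold change 0.88, SE 0.21, edgeR adjusted p = 0.0622). COL18A1, whose C-terminal part is endostatin, had 97.3, 78.0, 72.2 and 63.8 CPM with I-BET762, against 42.8, 50.8, 24.8 and 39.4 CPM in control (log2 fold change 0.98, SE 0.24, adjusted p = 0.0659). Neither passed with all libraries in edgeR. DESeq2 called both, as did edgeR with no filter on low counts and with the groups fitted alone, and COL6A2 also passed with a minimum mean of 5 CPM and without control replicate 4. No chain passed with the correction for GC content and exon length, the replicate block, limma-voom or RLE factors. The same held without the libraries labelled control 2 and I-BET762 2. With lactate and I-BET762 together COL18A1 reached 112, 149, 79.5 and 131 CPM. COL17A1, a transmembrane collagen of hemidesmosomes, fell in the combined cells against control, with 5.57, 5.12, 5.16 and 6.35 CPM with both agents against 10.1, 7.36, 9.79 and 13 CPM in control (log2 fold change -0.86, SE 0.23, edgeR adjusted p = 0.0162, and 0.0672 without control replicate 4).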
